A study of Mus musculus with 16 samples.

Results

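The genes described here are 10 transcripts known from the olfactory bulb and from newborn neurons, namely Sp8, Shisa3, Fabp7, Dcx, Dlx1, Dlx2, Dlx5, Eomes, Doc2g and Cdhr1. They were taken by symbol, 10 of the 24062 genes in the count table, and all 10 were also in the FPKM table of 23991 genes. The set was chosen by measured values of these same mice, since Sp8, Shisa3 and Fabp7 were included for being lower in every treated group than in WW, so the comparisons with WW are given as descriptions. RNA was sequenced from whole brain with the cerebellum attached in 16 female C57BL/6J mice killed on postnatal day 45, 4 in each of 4 groups, and each mouse gave 1 library. WW mice drank only tap water. NW mice had nicotine freebase at 200 µg/ml in all 3 of their bottles for 22 h a day and water in the daily session. Water-Ethanol mice had water bottles and, on days 7 to 10, a session in the dark with 20% v/v ethanol, which lasted 2 h on the earlier days and 4 h on the last. NE mice had the nicotine bottles and the ethanol sessions. The labels give no allele beside the strain, and strain, sex, age and single housing were shared by all groups. A model limit is that only female adolescents were studied, over days of drinking in which each mouse set only the volume taken. No water was offered beside the nicotine bottles or in the ethanol sessions. In a whole brain library, fewer cells of a type and less RNA per cell cannot be told apart.

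The olfactory bulb is one of the few regions of the adult rodent brain that keeps receiving new neurons. Neural stem cells of the subventricular zone give rise to neuroblasts, which carry the microtubule protein doublecortin (Dcx), travel along the rostral migratory stream and mature into granule and periglomerular interneurons of the bulb. Sp8, a zinc-finger transcription factor, and the homeobox factors Dlx1, Dlx2 and Dlx5 act along this inhibitory lineage. Mitral and tufted cells, the projection neurons of the bulb, are the known site of the cadherin-related gene Cdhr1 and of Doc2g, and they use the T-box factor Eomes (Tbr2), which also marks intermediate progenitors of excitatory neurons and the unipolar brush cells of the cerebellum. Fabp7, brain lipid-binding protein, is known from radial glia, olfactory ensheathing glia and immature astrocytes. Shisa3 belongs to a family of membrane proteins, some of which hold Wnt and FGF receptors in the endoplasmic reticulum.

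The members lay on 9 chromosomes of GRCm38 and were not neighbours, except that Dlx1 (chr2:71529445-71533980) and Dlx2 (chr2:71543408-71546754) stood side by side on opposite strands. Sp8 spanned chr12:118846329-118852578, Shisa3 chr5:67607883-67613987 and Fabp7 chr10:57784923-57788450. RefSeq start windows on GRCm38.p6, from 250 bases before to 50 after a start, were found for 9 of the 10 members, with 3 starts for Sp8 and 2 overlapping ones for Dcx, while Dlx5 had none in the table. They were searched on both strands for TAATTA (homeodomain core), TGGGAA (RBPJ core), GGGCGG (GC box), CAGCTG (E-box) and TCACAC (T-box core), and no matches overlapped. The windows below are those of the 3 genes named for their low level, Sp8 at the most downstream of its starts, together with the mitral and tufted cell gene Doc2g and the newborn neuron gene Dcx at its first start. Capitals mark the matches, on either strand.
Sp8 (chr12:118847309-118847608, plus strand): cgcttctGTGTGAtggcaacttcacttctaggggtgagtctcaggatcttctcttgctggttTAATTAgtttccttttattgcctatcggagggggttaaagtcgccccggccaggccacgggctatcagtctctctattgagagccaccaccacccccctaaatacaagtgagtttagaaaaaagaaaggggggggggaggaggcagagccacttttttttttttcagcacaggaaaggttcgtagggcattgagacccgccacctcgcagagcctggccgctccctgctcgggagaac
Shisa3 (chr5:67607633-67607932, plus strand): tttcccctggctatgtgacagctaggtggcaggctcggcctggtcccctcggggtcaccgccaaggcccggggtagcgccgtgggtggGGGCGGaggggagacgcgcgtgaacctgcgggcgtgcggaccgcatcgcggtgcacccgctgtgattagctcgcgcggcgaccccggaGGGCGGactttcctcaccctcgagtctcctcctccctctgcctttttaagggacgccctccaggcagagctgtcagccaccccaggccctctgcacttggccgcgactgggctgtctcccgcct
Fabp7 (chr10:57784673-57784972, plus strand): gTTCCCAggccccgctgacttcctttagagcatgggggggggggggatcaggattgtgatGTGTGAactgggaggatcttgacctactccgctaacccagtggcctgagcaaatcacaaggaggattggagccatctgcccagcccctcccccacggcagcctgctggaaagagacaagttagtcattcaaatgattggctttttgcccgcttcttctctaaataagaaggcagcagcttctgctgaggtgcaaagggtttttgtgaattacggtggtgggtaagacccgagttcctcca
Doc2g (chr19:4003135-4003434, plus strand): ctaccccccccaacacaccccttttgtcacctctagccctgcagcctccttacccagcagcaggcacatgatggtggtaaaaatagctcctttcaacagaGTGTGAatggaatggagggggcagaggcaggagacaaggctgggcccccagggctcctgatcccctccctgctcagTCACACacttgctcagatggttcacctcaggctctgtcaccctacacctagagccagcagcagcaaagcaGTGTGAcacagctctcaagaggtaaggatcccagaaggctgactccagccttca
Dcx (chrX:143933170-143933469, minus strand): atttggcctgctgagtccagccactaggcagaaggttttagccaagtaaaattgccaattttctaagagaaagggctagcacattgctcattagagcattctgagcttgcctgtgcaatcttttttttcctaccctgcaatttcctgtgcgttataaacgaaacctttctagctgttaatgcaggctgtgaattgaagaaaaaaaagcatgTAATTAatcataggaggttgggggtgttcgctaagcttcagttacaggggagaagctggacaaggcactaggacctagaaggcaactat
None of the 5 motifs was common to the set. The homeodomain core, present in 5.29% of all RefSeq start windows of this length, was found in windows of 2 members, Dcx and Sp8. The GC box, in 35.7% of all windows, was found for 4 members, Sp8, Shisa3, Dlx1 and Dlx2, and the T-box core, in 14.5%, for 3 members, Sp8, Fabp7 and Doc2g, with 3 matches in Doc2g. The RBPJ core (in 25.6% of all windows) was found for Fabp7 only and the E-box (16.3%) for Cdhr1 only. No motif was found in the window of Eomes or at the first start of Sp8. The shares are per window, while Sp8 and Dcx had several windows each, so counts of members cannot be set directly against them. Of the 12 windows of the members, 3 held the homeodomain core, 4 the GC box and 4 the T-box core. These are matches of letters in a short window and were not tested as binding sites.

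The libraries held 27100352 to 32880979 counted reads. The members were covered by 79 to 2152 reads per mouse, and all 10 passed the filter on low counts in every comparison. Several libraries stood apart in genes of other tissues. For each list of markers a score was taken as the mean centred log2 level of its genes, so that 0 is the average of the 16 mice. The score of 8 cerebellar neuron genes was -1.55 in WW mouse 21, the next lowest was that of NW mouse 10, and it lay between 0.08 and 0.30 in the other mice. WW mouse 20 had the highest scores of olfactory mucosa genes, 1.59, and of bone and meningeal fibroblast genes, 0.45, and carried 146 normalized counts of the nasal enzyme gene Cyp2g1, where the next mouse had 32.9. For some of the results that rest on one of these mice, the value without it or the value of that mouse is given.

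Per length of transcript, Fabp7 was the most abundant member. In WW its FPKM (reads per length of transcript, scaled to the mapped reads of the library) was 68.8 ± 4.85 (mean ± SD, n = 4), above every other member without overlap. Doc2g followed at 12.6 ± 1.13 FPKM and Cdhr1 at 9.49 ± 0.118 FPKM, and these levels did not overlap either. Dlx1 with 7.37 ± 1.22 FPKM and Dcx with 7.06 ± 0.745 FPKM could not be ordered within their spread. The same held for Dlx5 (4.33 ± 0.919 FPKM), Eomes (3.86 ± 0.57 FPKM), Dlx2 (3.1 ± 0.29 FPKM) and Sp8 (2.75 ± 0.183 FPKM), each of which overlapped the next in this order. Shisa3 was the least abundant at 1.97 ± 0.146 FPKM, below all WW values of Sp8.

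Among the transcription factors of the interneuron lineage, Sp8 was lower in the treated mice, Dlx2 less so, and Dlx5 was level. Values are normalized counts (reads scaled to library size by edgeR's TMM factors), listed by rising mouse number, which is 18, 19, 20, 21 in WW, 7, 8, 10, 11 in NW, 13, 14, 15, 16 in Water-Ethanol and 2, 3, 4, 5 for NE. Normalized counts of Sp8 were 361, 319, 357 and 364 in WW and 230.1, 269.6, 326 and 164 in NW. For Sp8, Water-Ethanol gave 305, 302, 189 and 202 normalized counts and NE gave 327, 259, 200.5 and 312. The 4 WW mice were close together, and 10 of the 12 treated mice lay below the lowest of them. The exceptions were NW mouse 10 and NE mouse 2, whose counts were among the WW values. Normalized counts of Dlx2 were 215, 201, 186 and 232 in WW and 163, 182, 186 and 121 in NW. For Dlx2, Water-Ethanol gave 195, 199, 134 and 155 normalized counts and NE gave 223, 181, 174 and 184. All 4 NW mice were below the WW mice in Dlx2, although the highest, mouse 10, and the lowest WW mouse, mouse 20, both rounded to 186, while Water-Ethanol and NE overlapped WW. Dlx1 ranged from 675 to 947 normalized counts in WW and from 515 to 893 in the treated mice, and 4 of the 12 were below WW. Its count is uncertain, because 1055 exon bases are shared with the antisense gene Dlx1as, which held 444 normalized counts (median of 16 mice), and the use of strand in counting is not given in the sources used here. Dlx5 had 153 ± 32.3 normalized counts in WW, 151 ± 21.1 in NW, 154 ± 17.2 in Water-Ethanol and 149 ± 21.4 for NE (SD, n = 4 each). None of the 12 treated mice left the WW range downwards in Dlx5, and its WW mice spread more, relative to their mean, than those of any other member.

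Of the genes of newborn neurons and glia, Fabp7 stood farther from WW than Dcx. Normalized counts of Fabp7 were 1022, 1192, 1199 and 1175 in WW and 882, 919, 946 and 731 in NW. For Fabp7, Water-Ethanol gave 1074, 1050.5, 550.3 and 753 normalized counts and NE gave 906, 838, 592 and 1049. All NW mice, 2 Water-Ethanol mice and 3 NE mice were below every WW mouse, 9 of 12 in all. Normalized counts of Dcx were 1881, 1684, 1673 and 2054 in WW and 1502, 1413, 1936 and 1228 in NW. For Dcx, Water-Ethanol gave 1843, 1702, 1356 and 1468 normalized counts and NE gave 1962, 1493, 1398 and 1815. The Dcx groups overlapped in each comparison, and 7 of the 12 treated mice were below the lowest WW mouse. Normalized counts of Shisa3 were 212, 188, 218 and 182 in WW and 118, 148, 167 and 115 in NW. For Shisa3, Water-Ethanol gave 209, 156, 81 and 129.6 normalized counts and NE gave 178, 146, 124 and 157. In Shisa3, every NW and NE mouse was below the WW mice, and Water-Ethanol mouse 13 was the only treated mouse within the WW range.

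Among the genes of mitral and tufted cells, Cdhr1 was nearly equal in the WW mice, Doc2g less so and Eomes not. Normalized counts of Cdhr1 were 1133, 1149, 1144 and 1165 in WW and 976, 999, 1183 and 597 in NW. For Cdhr1, Water-Ethanol gave 1192, 1079, 459 and 813 normalized counts and NE gave 1029, 840.2, 538 and 914. The WW mice spanned 1133 to 1165 normalized counts of Cdhr1, a CV of 1.15%. The treated mice spanned 459 to 1192 normalized counts, 10 of 12 below WW and 2, NW mouse 10 and Water-Ethanol mouse 13, above it. Normalized counts of Doc2g were 505, 445, 452 and 531 in WW and 491, 469, 508 and 284 in NW. For Doc2g, Water-Ethanol gave 546, 474, 253 and 342 normalized counts and NE gave 533, 412, 278 and 397. NW mouse 11, Water-Ethanol mouse 15 and NE mouse 4 had the 3 lowest levels of Doc2g, the highest mouse of each group lay within or above the WW range, and 6 of 12 were below WW. Normalized counts of Eomes were 408, 451, 425 and 314 in WW and 353, 336, 283 and 359 in NW. For Eomes, Water-Ethanol gave 482, 451, 253 and 426 normalized counts and NE gave 370.1, 306, 278 and 361. Here the order of the mice was another one in WW and NW, while Water-Ethanol mouse 15 and NE mouse 4 were again the lowest of their groups. WW mouse 21 and NW mouse 10, the libraries with little cerebellar signal, were the lowest of their groups in Eomes, and the part of cerebellar tissue in this was not tested.

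**Figure D1:**
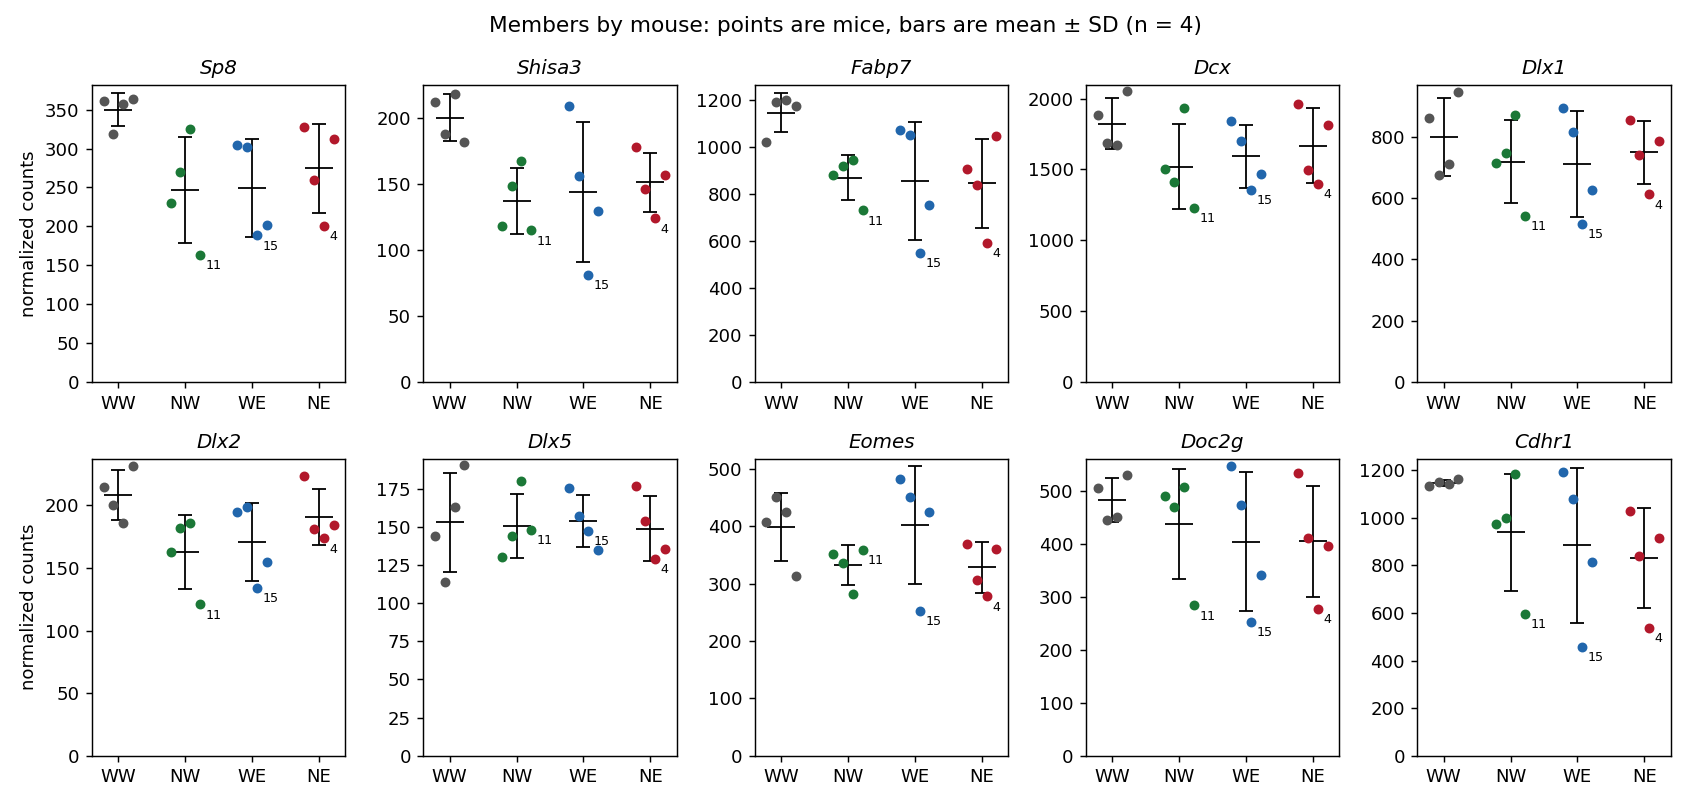
Normalized counts of the 10 members (vertical axes, from 0) by group (WW, NW, NE, and the initials of Water-Ethanol). Each point is 1 mouse and bars are mean ± SD of 4 mice. Mouse 11 of NW, mouse 15 of Water-Ethanol and mouse 4 of NE are numbered and lie at the bottom of their groups in most panels, while the WW points of Cdhr1 lie within 1133 to 1165.

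The low values were carried by the same few mice across the genes. NE mouse 4 was the lowest of its group in 10 of the 10 members, Water-Ethanol mouse 15 in 9 and NW mouse 11 in 8. Relative to the WW mean, the median member stood at 58.6% in mouse 15, 61.2% in mouse 11 and 65.8% in mouse 4. The smallest share was 40%, for Cdhr1 in mouse 15. Each treated group also held a mouse near the WW level. NE mouse 2, NW mouse 10 and Water-Ethanol mouse 13 were each the highest of their group in 9 members, with medians of 100.3%, 98% and 104% of the WW mean. The remaining 6 treated mice had medians from 72.6% (Water-Ethanol mouse 16) to 94.7% (Water-Ethanol mouse 14), and the WW mice from 93.2% to 107%.

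**Figure D2:**
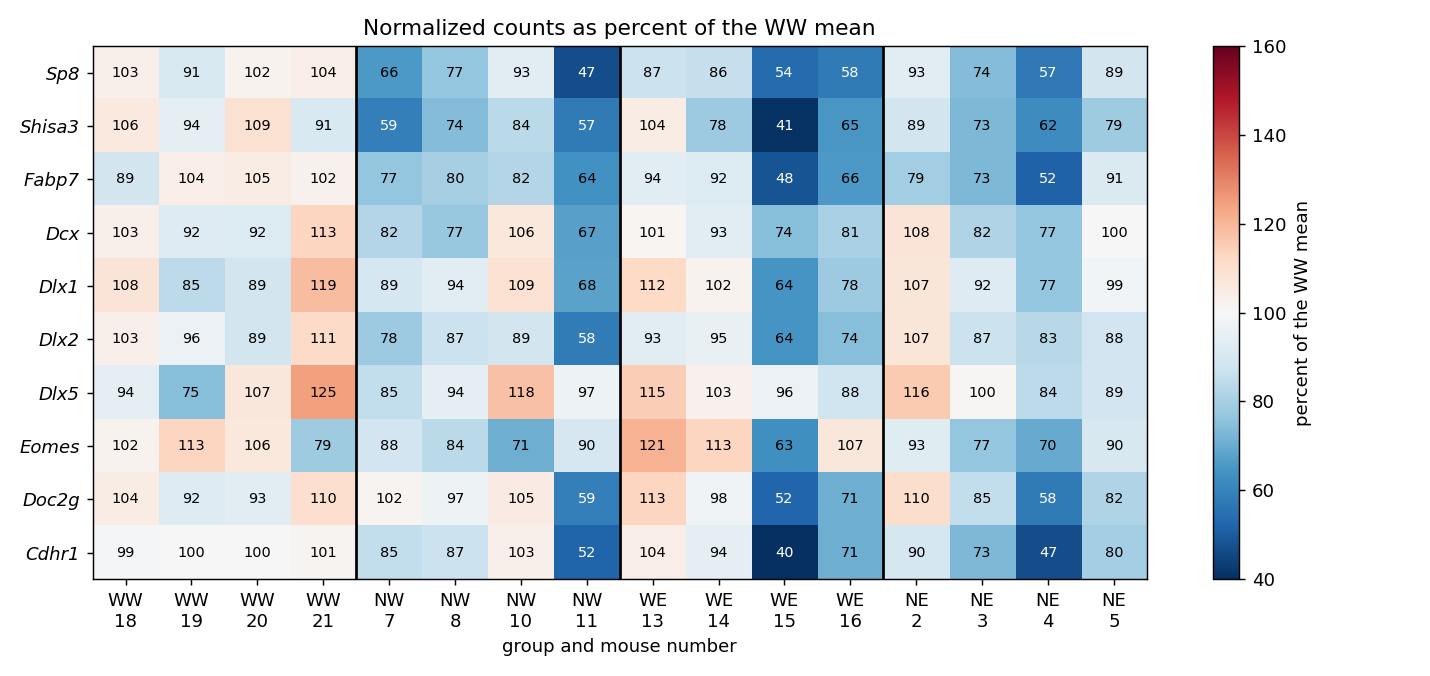
Normalized counts of each member (rows) in each mouse (columns, by group and mouse number) as percent of the WW mean of that member. Blue is below and red above 100; columns 11, 15 and 4 are blue in nearly all rows, with 40% for Cdhr1 in mouse 15 as the lowest cell.

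The mice of the treated groups were farther apart than the controls in most of these genes. The median CV of the members was 9.19% in WW, 18.6% in NW, 25.3% in Water-Ethanol and 15.4% for NE. The CV was above that in WW for 8 of 10 members in NW, 9 in Water-Ethanol and 7 for NE. Over all 15592 genes with enough reads in a fit of the 16 mice, the share with a CV above WW was 60.1%, 43.4% and 46.2%. Dlx5 was the member with the highest CV in WW, 21.1%, and Shisa3 the one with the highest CV of any group, 37.1% in Water-Ethanol. The spread itself was not tested.

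Against WW, the question of the design was whether nicotine, ethanol or both altered expression. Sp8, Shisa3 and Fabp7, chosen for this contrast, had log2 fold changes of -0.51 ± 0.16, -0.55 ± 0.13 and -0.40 ± 0.08 in NW (± SE from edgeR). In Water-Ethanol the log2 fold changes were -0.48 ± 0.14, -0.47 ± 0.20 and -0.42 ± 0.16, and in NE -0.34 ± 0.13, -0.40 ± 0.12 and -0.44 ± 0.13, in the same order. Cdhr1, which the rule did not name as low, had log2 fold changes of -0.29 ± 0.15, -0.37 ± 0.20 and -0.46 ± 0.14 in NW, Water-Ethanol and NE. The largest of these in NE was that of Cdhr1. In the same order, Dlx2 had -0.36 ± 0.13, -0.28 ± 0.13 and -0.12 ± 0.10, and Dcx -0.26 ± 0.12, -0.19 ± 0.09 and -0.12 ± 0.10, on the log2 scale. The log2 fold changes of Doc2g were -0.14 ± 0.15, -0.25 ± 0.18 and -0.25 ± 0.15, and those of Dlx1 -0.15 ± 0.14, -0.16 ± 0.15 and -0.09 ± 0.12. Eomes differed between the contrasts, with -0.26 ± 0.11 in NW, 0.02 ± 0.17 in Water-Ethanol and -0.28 ± 0.12 for NE on the log2 scale. Dlx5 stayed near 0 at -0.02 ± 0.16, 0.014 ± 0.14 and -0.03 ± 0.15. The median member had a log2 fold change of -0.28 in NW, -0.27 in Water-Ethanol and -0.26 for NE, where the median of all genes tested was 0.0096, 0.0015 and 0.0039. The 3 contrasts share the WW mice. WW had the highest group mean in 8 of the 10 members, all but Dlx5 and Eomes, and in 25.9% of all genes.

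The calls depended on the test. At an adjusted p under 0.05 in edgeR's quasi-likelihood test, 0 of 10 members were called in NW, Water-Ethanol or NE against WW, where 0%, 0.457% and 0.313% of all genes tested were. Without adjustment at 0.05 the members counted 5 in NW (Sp8, Shisa3, Fabp7, Dlx2 and Eomes), 4 in Water-Ethanol (Sp8, Shisa3, Fabp7 and Dlx2) and 5 in NE (Sp8, Shisa3, Fabp7, Eomes and Cdhr1), all lower, beside 8.44%, 19.3% and 17.5% of all genes. Of all genes past that threshold, 996 were lower and 299 higher in NW, 1386 and 1579 in Water-Ethanol and 1261 and 1412 in NE. DESeq2 called Shisa3 and Fabp7 in NW, Sp8 in Water-Ethanol and no member in NE, with 0.802%, 3.94% and 3.38% of all genes called. The likelihood-ratio test of edgeR called the same 2 members in NW, Sp8 in Water-Ethanol and Shisa3 in NE, beside 0.736%, 4.05% and 2.45% of all genes. Limma on log2(FPKM + 1) called 0 members in each, beside 0%, 0% and 0.118%. All 4 treated mice lay below all 4 WW mice in 3 members in NW (Shisa3, Fabp7 and Dlx2), 1 in Water-Ethanol (Sp8) and 2 in NE (Shisa3 and Cdhr1), beside 4.25%, 5.68% and 5.51% of all genes. Since the members were selected on these contrasts, nothing is read from these counts.

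Single mice set much of the size of some of these differences. Without Water-Ethanol mouse 15, the log2 fold change of Cdhr1 in Water-Ethanol went from -0.37 to -0.16, that of Shisa3 from -0.47 to -0.27 and that of Fabp7 from -0.42 to -0.25. Without NW mouse 11, Cdhr1 in NW went from -0.29 to -0.12 and Sp8 from -0.51 to -0.35 on the log2 scale, and the sign of Doc2g turned, to 0.02. Shisa3 and Fabp7 in NW moved less without that mouse, from -0.55 to -0.47 and from -0.40 to -0.32. Without NE mouse 4, the log2 fold change in NE was -0.30 for Cdhr1, -0.30 for Fabp7, -0.22 for Sp8 and -0.31 for Shisa3. Sp8, Shisa3 and Fabp7 kept a negative sign whichever single mouse was left out. Without WW mouse 20, the library with nasal and bone transcripts, their log2 fold changes were -0.50, -0.50 and -0.38 in NW, -0.47, -0.42 and -0.39 in Water-Ethanol and -0.33, -0.35 and -0.41 for NE. Without WW mouse 21 they were -0.49, -0.59 and -0.39 in NW, -0.46, -0.51 and -0.40 in Water-Ethanol and -0.33, -0.44 and -0.43 for NE. Without NW mouse 10 they were -0.67, -0.66 and -0.45 in NW, mice 21 and 10 being the libraries with little cerebellar signal. For Eomes, leaving out WW mouse 21 moved the log2 fold change in NW from -0.26 to -0.36 and in NE from -0.28 to -0.38.

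**Figure D3:**
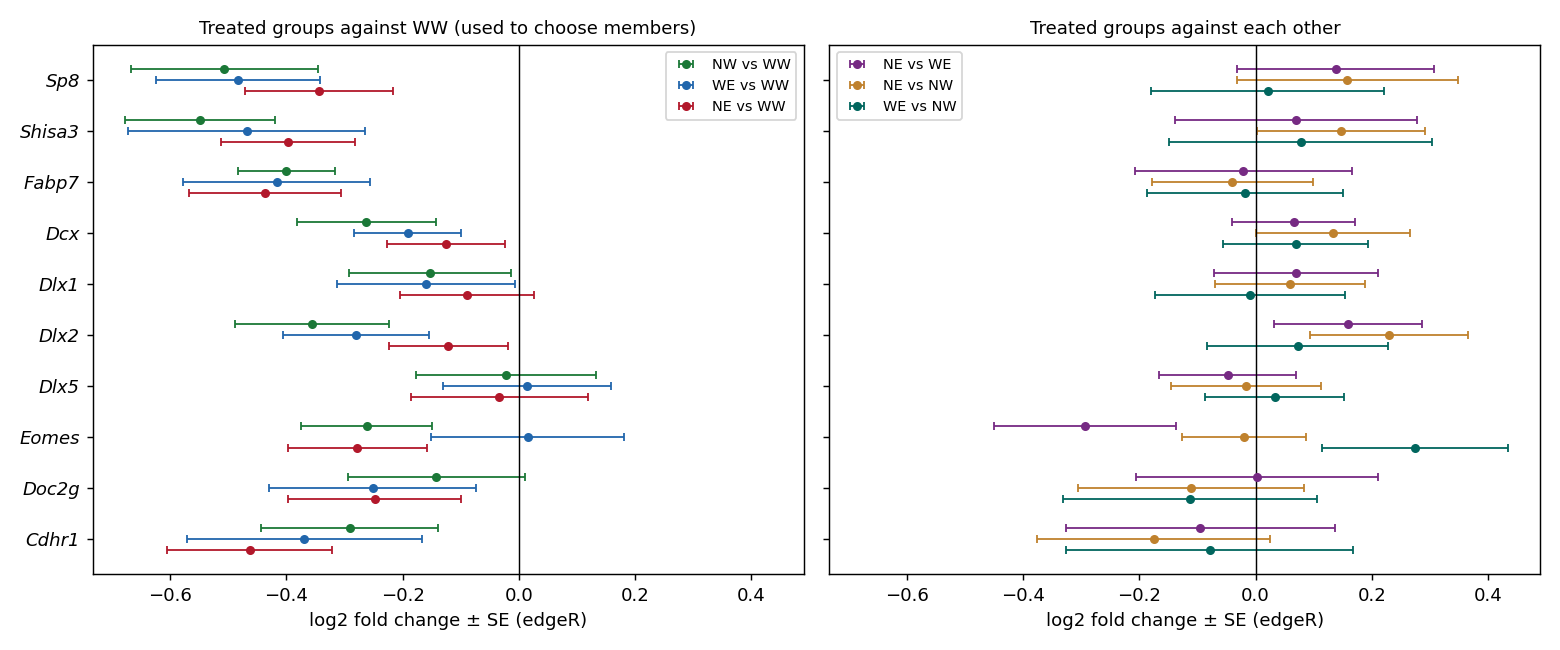
Log2 fold changes ± SE from edgeR (horizontal axes) of the 10 members, on the left for NW, NE and the Water-Ethanol group (its initials) against WW, the contrasts used in choosing the genes, and on the right for the treated groups against each other. Most points on the left lie below 0, down to -0.55 for Shisa3 in NW, and those on the right lie on both sides of 0.

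The treated groups were compared with each other in contrasts that the choice of genes did not name. Sp8, Shisa3 and Fabp7 were chosen for low values in every treated group. For them, a lack of difference between treated groups is therefore not independent of the choice. For each member the mice of NW, Water-Ethanol and NE overlapped in every pair of groups, and no difference passed a test. Between NE and Water-Ethanol, 0 of 10 members were called by edgeR's quasi-likelihood test, beside 0% of all genes, and 0 had an unadjusted p under 0.05, beside 5.8%. Between NE and NW the counts were 0 and 0, beside 0% and 11.9%, and between Water-Ethanol and NW 0 and 0, beside 0% and 17%. DESeq2 and the likelihood-ratio test also called 0 members, with 0.0131%, 0.612% and 2.7% of all genes called by the former and 0.0131%, 0.69% and 2.92% by the latter. Limma called 0 members, beside 0%, 0.00651% and 0%. The widest separation was that of Eomes, higher in Water-Ethanol than in NE or NW. Its log2 fold change was -0.29 ± 0.16 (SE, interval -0.60 to 0.014) for NE against Water-Ethanol, with an adjusted p of 0.834 in edgeR's quasi-likelihood test and an exact permutation p of 0.20. For Water-Ethanol against NW the Eomes log2 fold change was 0.27 ± 0.16 (SE, interval -0.04 to 0.59), with an adjusted p of 0.405 in edgeR and an exact permutation p of 0.257. Dlx2 was higher in NE than in NW by 0.23 ± 0.14 (SE, interval -0.04 to 0.50) on the log2 scale, with an adjusted p of 0.514 in edgeR and an exact permutation p of 0.257. Cdhr1 differed by -0.18 ± 0.20 (SE, interval -0.57 to 0.22) between NE and NW, Dlx2 by 0.16 ± 0.13 (SE, interval -0.09 to 0.41) between NE and Water-Ethanol and Doc2g by -0.11 ± 0.22 (SE, interval -0.54 to 0.31) between Water-Ethanol and NW, on the log2 scale. The exact tests were two-sided on normalized counts of 4 against 4 mice, for which the smallest possible p is 0.0286. Over the 30 exact permutation tests the smallest Benjamini-Hochberg adjusted p was 0.975. For Sp8, Shisa3 and Fabp7 the intervals of all differences between treated groups spanned 0. Sp8 differed by 0.14 ± 0.17 (SE, interval -0.19 to 0.47) between NE and Water-Ethanol and by 0.16 ± 0.19 (SE, interval -0.22 to 0.53) between NE and NW. Shisa3 differed by 0.07 ± 0.21 (SE, interval -0.34 to 0.48) and 0.15 ± 0.14 (SE, interval -0.14 to 0.43), and Fabp7 by -0.02 ± 0.19 (SE, interval -0.39 to 0.34) and -0.04 ± 0.14 (SE, interval -0.31 to 0.23), for the same pairs. Between Water-Ethanol and NW the log2 fold change was 0.02 ± 0.20 (SE, interval -0.37 to 0.42) for Sp8, 0.08 ± 0.23 (SE, interval -0.37 to 0.52) for Shisa3 and -0.02 ± 0.17 (SE, interval -0.35 to 0.31) for Fabp7. The intervals were taken from the SE with the normal quantile for 95%, which with 4 mice a group makes them too narrow for that level. Even so, they leave room for differences of the size seen against WW in some of these genes.

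Across the 16 mice, 8 of the 10 members were high and low together. Pearson's r of log2 CPM between pairs of Sp8, Shisa3, Fabp7, Dcx, Dlx1, Dlx2, Doc2g and Cdhr1 ran from 0.71 to 0.95 (28 pairs, median 0.86). The closest pair was Doc2g and Cdhr1. Dlx5 and Eomes stood apart, with median r of 0.35 and 0.36 to the other members and -0.10 to each other. After the mean of each group was removed, the 28 pairs had a median r of 0.85 and a range from 0.69 to 0.96, so the members also varied together within groups. Over pairs of 312 genes taken evenly from the table, the median r was -0.00428. These correlations describe 16 brains whose points share library and dissection, and they carry no test. Over the scores of the 14 lists, Eomes had r from -0.66 (striatal) to 0.71 (bulb interneuron), with 0.69 for mitral and tufted cells, 0.58 for neuroblasts, 0.57 for bone and fibroblasts and 0.38 for the cerebellum. Dlx5 had r from -0.63 (cerebellar) to 0.42 (olfactory mucosa). Sp8, Shisa3 and Fabp7 had r of 0.75, 0.78 and 0.76 with the bulb interneuron score and 0.73, 0.68 and 0.84 with that of ensheathing glia. With the score of neuroblasts and newborn neurons they had r of 0.69, 0.72 and 0.74. For mitral and tufted cells r was 0.54, 0.63 and 0.66, and for stem cells and progenitors 0.55, 0.55 and 0.57. In the same order, r was 0.57, 0.62 and 0.56 for olfactory mucosa and 0.54, 0.68 and 0.70 for bone and fibroblasts. It was -0.38, -0.19 and -0.27 for the cerebellum and -0.56, -0.32 and -0.52 for the dentate genes.

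**Figure D4:**
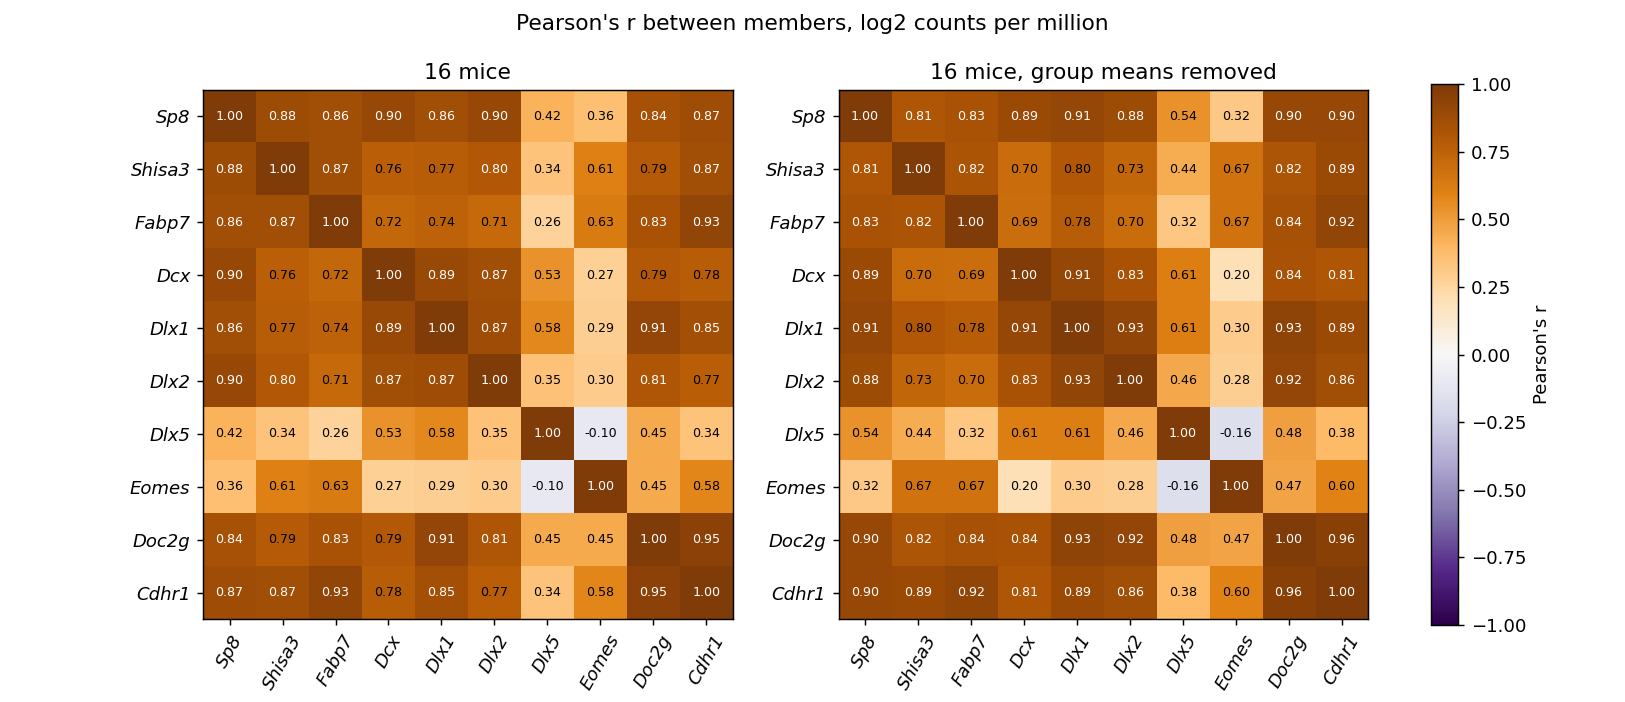
Pearson's r between the members over 16 mice in log2 CPM, as measured (left) and after removing group means (right). Cells run from -0.10 for Dlx5 and Eomes to 0.95 for Doc2g and Cdhr1 on the left, and the rows of Dlx5 and Eomes are the pale ones in both panels.

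Several genes known from the olfactory system were among those whose level followed the members most closely across the mice. Among 15582 genes ranked by Pearson's r with the mean of the standardized members, the first 10 were Frmd7 (r = 0.94), Gng4 (0.94), S100a5 (0.94), Ms4a15 (0.92), Omp (0.91), Ptpro (0.90), Clca1 (0.89), Gdpd4 (0.89), Meis2 (0.88) and Scgn (0.87). Omp, olfactory marker protein, and S100a5 are known from olfactory sensory neurons, whose axons enter the bulb. Meis2, a homeobox factor, and Scgn, the calcium sensor secretagogin, are known from bulb interneurons. S100a5 and Omp were among the 5 genes closest to each of Sp8, Shisa3 and Fabp7, with r between 0.86 and 0.91. Gng4, Frmd7 and Meis2 completed the 5 of Sp8, Synpr, Nrip3 and Ms4a15 those of Shisa3, and Gng4, Gdpd4 and Smap1 those of Fabp7. The normalized counts of S100a5 were 99.4, 85.4, 133 and 101 in WW, 61.3, 101, 104 and 28 in NW, 113, 101, 21.5 and 43.6 in Water-Ethanol and 83, 80.2, 28.8 and 94.1 for NE. NW mouse 11, Water-Ethanol mouse 15 and NE mouse 4 were again the lowest of their groups, and in S100a5 they held less than any other mouse of the study. Omp had 164, 189, 349 and 254 in WW, 131, 202, 175 and 45.2 in NW, 227, 226, 33.8 and 88.2 in Water-Ethanol and 203, 189, 63.5 and 221 for NE, with the same 3 mice lowest and WW mouse 20 highest. The share of the bulb in each brain sample was not tested.

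Doc2g and Cdhr1 serve as a scale here because they are genes of bulb projection neurons rather than of newborn neurons. When each gene was set against the mean log2 level of Doc2g and Cdhr1 in the same mouse, an alternative chosen after the data were seen, the differences of Sp8, Shisa3 and Fabp7 from WW became smaller and some of those of other members larger. For Sp8 the mean log2 ratio relative to WW was -0.29 in NW, -0.13 in Water-Ethanol and 0.03 for NE. All 4 NW mice, 3 Water-Ethanol mice and 2 NE mice were below the WW mice in this ratio. For Shisa3 it was -0.30 in NW, -0.16 in Water-Ethanol and -0.0091 for NE, with 3, 1 and 0 mice below WW, and for Fabp7 -0.15 in NW, -0.08 in Water-Ethanol and -0.07 for NE, with 3, 1 and 1. Between mice the SD of the Sp8 ratio was 0.07 in WW, 0.15 in NW, 0.26 in Water-Ethanol and 0.13 for NE. In NE the mean ratios of Sp8, Shisa3 and Fabp7 differed from WW by less than the SD of the NE mice. Dlx1, Dlx2 and Dcx had ratios of 0.31, 0.27 and 0.26 in NE relative to WW, above 0, Doc2g and Cdhr1 having been farther below WW than these genes. For Dlx5 the mean log2 ratio relative to WW was 0.25 in NW, 0.41 in Water-Ethanol and 0.37 for NE, and for Eomes -0.003 in NW, 0.37 in Water-Ethanol and 0.12 for NE. These ratios rest on a pair of genes that were themselves low in the same mice, and they were not tested.

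**Figure D5:**
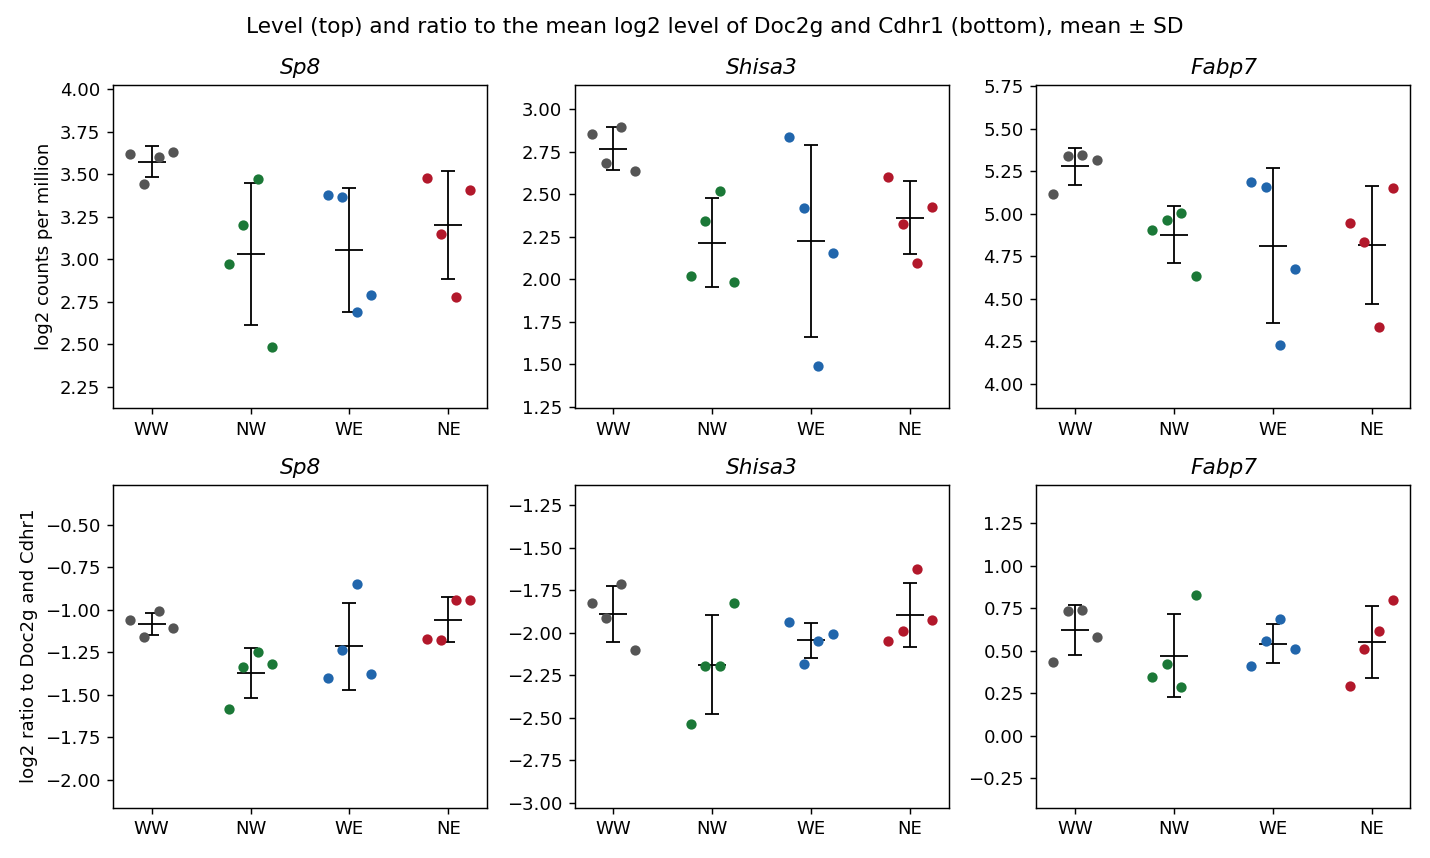
Sp8, Shisa3 and Fabp7 by group, as log2 CPM (top) and as log2 ratio to the mean log2 level of Doc2g and Cdhr1 in the same mouse (bottom). Points are mice, bars are mean ± SD of 4 mice, the initials of Water-Ethanol mark that group, and all panels span the same number of log2 units. The NE means of the ratio differ from WW by 0.03 for Sp8, -0.0091 for Shisa3 and -0.07 for Fabp7.

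Other genes of the same cell types were read from 14 lists of 175 genes, of which 171 were in the count table. The listed genes whose counts are given below were, except Nes, among the 3 of their list with the largest mean change against WW. The quasi-likelihood test of edgeR called 0 listed genes in each of the 6 comparisons. At an unadjusted p under 0.05 there were 17 in NW (15 lower), 42 in Water-Ethanol (36 lower) and 35 in NE (29 lower) of 150, 150 and 151 tested against WW, beside 8.44%, 19.3% and 17.5% of all genes. The same threshold gave 996 lower and 299 higher over all genes in NW, 1386 and 1579 in Water-Ethanol and 1261 and 1412 in NE. For NE against Water-Ethanol, NE against NW and Water-Ethanol against NW there were 11, 20 and 29 listed genes of 151, beside 5.8%, 11.9% and 17%. DESeq2 called 1, 8 and 6 listed genes against WW, beside 0.802%, 3.94% and 3.38% of all genes, and 0, 2 and 12 among the treated groups, beside 0.0131%, 0.612% and 2.7%, and limma called 0 throughout. Of 20 genes of migrating neuroblasts and newborn neurons, 17, 16 and 15 had a log2 fold change below 0 in NW, Water-Ethanol and NE, and the medians were -0.14, -0.08 and -0.06. The medians of all genes tested were 0.0096, 0.0015 and 0.0039. Draxin, a guidance cue, had 45 ± 7.87 in WW, 32.6 ± 9.67 in NW, 35.9 ± 4.25 in Water-Ethanol and 34.7 ± 4.91 for NE (normalized counts, mean ± SD, n = 4). Prokr2, the receptor that guides neuroblasts into the bulb, had 189 ± 16.7 in WW, 156 ± 26.3 in NW, 149 ± 27.1 in Water-Ethanol and 161 ± 25.3 for NE. Igfbpl1 was in the same range of differences, with 99 ± 16.8 in WW and 85.5 ± 18 in NE. DESeq2 called Tubb2b, Robo2 and Marcksl1 of this list, all lower, in Water-Ethanol against WW, and these and the other genes named for a DESeq2 call were picked after their values were seen.

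The 24 tested genes of bulb interneurons had medians nearer 0, with log2 fold changes of -0.08, -0.02 and -0.03 in NW, Water-Ethanol and NE. Dlx6os1, the antisense transcript at the Dlx6 locus, had 993 ± 112 in WW, 839.8 ± 145 in NW, 755 ± 82.1 in Water-Ethanol and 779 ± 109 for NE normalized counts. Synpr, synaptoporin, had 4161 ± 142 in WW, 3557 ± 334 in NW, 3614 ± 373 in Water-Ethanol and 3559 ± 351 for NE, and the homeobox gene Pax6 went the other way with 675 ± 122 in WW, 684 ± 128 in NW, 827 ± 48.5 in Water-Ethanol and 803 ± 45.7 for NE. Pax6 was lowest in WW mouse 21 and NW mouse 10, the libraries with little cerebellar signal, at 492 and 508 normalized counts. DESeq2 called Dlx6os1 lower in both Water-Ethanol and NE, Gad2 lower in Water-Ethanol and Synpr lower in NE. Among 9 mitral and tufted cell genes the medians were -0.05, -0.06 and -0.06, or -0.18, -0.10 and -0.13 without WW mouse 21. Tbx21, a T-box factor of mitral and tufted cells, had 46 ± 15.4 in WW, 34.9 ± 13.2 in NW, 26.8 ± 13.1 in Water-Ethanol and 26.3 ± 10.5 for NE, and its lowest mice were again 11, 15 and 4 of their groups, at 16.3, 9.22 and 10.9 normalized counts. The neuropeptide gene Nmb had 112 ± 5.02 in WW, 97.8 ± 26 in NW, 88.3 ± 21.8 in Water-Ethanol and 90.4 ± 12 for NE, and Kctd12 6426 ± 411 in WW, 5399.6 ± 561 in NW, 6173 ± 117 in Water-Ethanol and 6197 ± 210.3 for NE.

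Genes of neural stem cells and progenitors (24 tested) had medians of -0.06, -0.07 and -0.07. In NW, Water-Ethanol and NE, 15, 17 and 18 of them were below 0 and 9, 7 and 6 above. Mki67, Cdk1 and Thbs4 were named for the largest mean changes of this list, so they do not stand for all of it. Mki67 and Cdk1 mark cycling cells, and Thbs4 is known from astrocyte-like stem cells of the subventricular zone. Mki67 had 122 ± 20.3 in WW, 91.5 ± 11.2 in NW, 78.4 ± 15.8 in Water-Ethanol and 82.7 ± 5.3 for NE normalized counts, and Cdk1 23.1 ± 6.7 in WW, 14.3 ± 3.77 in NW, 13.5 ± 1.87 in Water-Ethanol and 15.2 ± 1.66 for NE. Thbs4 had 183 ± 22.2 in WW, 162 ± 13.6 in NW, 142 ± 19.7 in Water-Ethanol and 130.3 ± 9.99 for NE, and its adjusted p in NE was 0.0749 in edgeR's quasi-likelihood test, the smallest of the listed genes there, while DESeq2 called it lower. Nes, the gene of the intermediate filament nestin, went the other way with 565 ± 97.3 in WW, 582 ± 59.6 in NW, 772 ± 92.6 in Water-Ethanol and 769 ± 65.4 for NE normalized counts, and DESeq2 called it higher in Water-Ethanol and NE against WW and against NW. The 10 olfactory ensheathing glia genes had medians of -0.0097, -0.13 and -0.03. Mean normalized counts of Prss56, Mybpc1 and Gldn were 22.3, 423 and 45.8 in WW against 17.4, 501 and 43 in NE. Mybpc1 was lowest in WW mouse 21, with little cerebellar signal, at 222 normalized counts.

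Lists of other tissues and cells differed in how far their medians stood from 0. Of 20 olfactory mucosa genes, Obp1a and Obp2a were at 0 in all mice and 9, 9 and 10 were tested, with medians of 0.011, -0.03 and -0.36, and the score ran from -0.35 to 1.59 in WW and from -0.85 to 0.66 in the treated mice. Stoml3 of this list had 62.1 ± 27.8 in WW, 34.9 ± 9.94 in NW, 38.1 ± 19.4 in Water-Ethanol and 30.9 ± 14 for NE normalized counts. Its WW mean without WW mouse 20 was 48.6 ± 8.13 (n = 3). Umodl1 had 18.6 ± 16.7 in WW and was highest in mouse 20, at 42 normalized counts. The bone and meningeal fibroblast list (8 tested) had medians of -0.12, -0.28 and -0.30, with Col1a1 at 1103 ± 657 in WW, 679.9 ± 98.5 in NW, 593 ± 80.7 in Water-Ethanol and 629 ± 57 for NE, of which WW mouse 20 held 2009. Without that mouse the bone medians were -0.09, -0.19 and -0.22, the WW mean of Col1a1 801 ± 316 (n = 3) and the mucosa medians 0.05, 0.0047 and 0.10, so that the last 2 of these turned sign. Without WW mouse 21 the mucosa medians were -0.34, -0.36 and -0.35, over 11, 10 and 10 genes that passed the filter. The genes behind these medians are thus in part not those of the main fits. The 8 cerebellar genes had medians of 0.03, 0.25 and 0.19. Without WW mouse 21 these medians turned to -0.19, -0.03 and -0.10, and without NW mouse 10 the first was 0.25. The medians were 0.02, -0.06 and -0.05 for 11 astrocyte and Bergmann glia genes, 0.03, -0.0056 and 0.06 for 10 dentate granule genes and 0.05, -0.08 and -0.05 for 9 striatal genes. Among relatives of the members, the medians were -0.05, -0.05 and -0.08 for 9 Dlx and Sp family genes, 0.02, -0.02 and -0.02 for 6 Shisa family genes and 0.02, -0.15 and -0.13 for Fabp3 and Fabp5, the tested Fabp genes. Shisa4 had 2007 ± 73.7 in WW, 2018 ± 117 in NW, 1724 ± 81.8 in Water-Ethanol and 1837 ± 170.1 for NE normalized counts, and its adjusted p in Water-Ethanol against WW was 0.0539 in edgeR's quasi-likelihood test, the smallest of the listed genes there. Fabp5, another brain fatty acid binding protein gene, had 2086 ± 71.7 in WW, 2075 ± 185 in NW, 1871 ± 178 in Water-Ethanol and 1923 ± 122 for NE. Of the cerebellar list, the Purkinje cell gene Pcp2 had 764 ± 388 in WW, 918 ± 365 in NW, 1012 ± 90.1 in Water-Ethanol and 1027 ± 46.3 for NE, or 954 ± 98.4 in WW without mouse 21 and 1096 ± 97 in NW without mouse 10 (n = 3 each), and of the astrocyte list Gja1, the connexin 43 gene, had 7856 ± 458 in WW, 7509 ± 489.9 in NW, 7161 ± 237 in Water-Ethanol and 6915 ± 357 for NE. Whether mucosa, bone or cerebellar tissue in the samples had a part in the members' values was not tested.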

How the data were processed

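Whole-brain RNA of 16 mice was sequenced as single reads. The authors deposited whole-number counts per gene and, in a second table, FPKM per gene. The submitters' processing notes name bcl2fastq 1.8.4, FastQC, Trimmomatic 0.32, TopHat2, Cufflinks, Cuffdiff and build mm10, while the counting program, its annotation and its use of strand are not given in the sources used here. FPKM are reads per transcript length and mapped library, as made by the authors before deposit.

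The deposited counts (24062 genes, 27100352 to 32880979 per mouse, no 2 libraries identical) were fitted for each of 6 pairs of groups on those 8 mice alone, with filterByExpr, TMM factors and glmQLFTest in edgeR 4.0.16 (R 4.3.3), Benjamini-Hochberg adjustment over all genes tested and a threshold of 0.05. The fits were tested on simulated data with known changes. The simulation used the same spread for every gene, so it does not show which differences could be detected in the members. The SE is the log2 fold change divided by the root of the F statistic. Normalized counts are counts per effective library size scaled to the mean library. Log2 CPM (counts per effective library size) used a prior count of 2. Exact permutation tests used scipy 1.17.1 and figures matplotlib 3.10.9. Alternatives were other size factors, other filters on low counts (none, or a mean of at least 10), DESeq2 1.42.0, the likelihood-ratio test, a fit of all 16 mice, limma 3.58.1 on log2(FPKM + 1) and log2(FPKM + 0.1), and leaving out each mouse. Groups came from the labels, and mouse numbers tie no mouse of one group to a mouse of another. Each mouse is a separate animal.

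The 10 members and the 14 gene lists were chosen with earlier results of these data known. Candidates for naming besides the members were the 3 genes of a list with the largest mean change against WW, the 5 genes most like each of Sp8, Shisa3 and Fabp7 and the 10 most like the members' mean. Positions are from GENCODE vM21 on GRCm38 and start windows from RefSeq on GRCm38.p6. The depth gave at least 79 reads of a member in a mouse. Blood ethanol and drinking volumes were not analysed here.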

Additional observations from a re-analysis of the deposited data

Results flagged for a closer look

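In WW, 1 of the 4 mice stood apart for each of 2 members. Sp8 was lowest in mouse 19, at 319 normalized counts, with a gap to the next mouse that took 0.84 of the range of the group. Fabp7 was lowest in mouse 18, at 1022 normalized counts, with a gap of 0.86 of the range. Both gaps exceeded the 95% critical value of Dixon's test for 4 samples. Of the 40 combinations of member and group that were tested, chance would place about 1 in 20 past this value.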

How the results depend on the processing

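Over 30 differences from WW and 489 alternative values, 5 moved by more than the spread and 19 changed sign. The moves were in Sp8 and Fabp7 in Water-Ethanol and NE and in Shisa3 in NE. In each of these the ratio to Doc2g and Cdhr1 gave the value farthest from that of the quasi-likelihood fit. The sign changes were in Dlx5 (3 in NW, 3 in Water-Ethanol, 4 for NE), Eomes in Water-Ethanol (6), Doc2g in NW (1), Dlx1 in NE (1) and, relative to Doc2g and Cdhr1, Sp8 in NE (1). These counts include the ratio to Doc2g and Cdhr1 for Sp8, Shisa3 and Fabp7 only. In other members the ratio also had the opposite sign, for Dlx1 in each treated group and for Dcx and Dlx2 in Water-Ethanol and NE. The same held for Dlx5 in NW and NE and for Eomes in NE. With DESeq2 the genes called against WW were 123 in NW, 603 in Water-Ethanol and 517 for NE, against 0, 70 and 48 by the quasi-likelihood test, with 2, 1 and 0 members and 1, 8 and 6 listed genes. With the likelihood-ratio test they were 113, 620 and 375, with 2, 1 and 1 members. The fit of all 16 mice called 112 genes in NW and 28 in Water-Ethanol, no filter 143 in Water-Ethanol, and limma 0 in Water-Ethanol and 18 in NE with either pseudocount. Leaving out 1 mouse gave 0 to 797 genes in Water-Ethanol and 0 to 283 in NE, the highest both without WW mouse 21, which also gave 12 and 3 listed genes (lowest 0). Between NE and Water-Ethanol the calls were 1 gene without the filter, 2 by DESeq2, 2 by the likelihood-ratio test and 0 to 1 without a mouse. Between NE and NW they were 94 (DESeq2), 106 (likelihood-ratio), 57 (all 16 mice) and 1 (limma, pseudocount 1), with 2 listed genes by DESeq2. Between Water-Ethanol and NW they were 42 without the filter, 415 (DESeq2), 448 (likelihood-ratio), 262 (all 16 mice) and 0 to 173 without a mouse, with 12 listed genes by DESeq2, and the highest was without NW mouse 10. The median r between members was 0.773, 0.798 after removing group means and 0.799 without WW mouse 20.

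Of the 15 differences between treated groups given above, 7 changed sign when 1 mouse was left out. Between NE and Water-Ethanol, the log2 fold change of Shisa3 ran from -0.13 to 0.31 and that of Fabp7 from -0.19 to 0.12, and limma gave Fabp7 0.0066 and 0.0073 at pseudocounts 1 and 0.1. Fabp7 ran from -0.16 to 0.10 between NE and NW. Between Water-Ethanol and NW, Sp8 ran from -0.14 to 0.18, Shisa3 from -0.16 to 0.28, Fabp7 from -0.15 to 0.15 and Doc2g from -0.29 to 0.059. The causes were not tested. With 4 mice a group, the SE between Water-Ethanol and NW was 0.25 for Cdhr1 and 0.23 for Shisa3 on the log2 scale. For Dlx5, with counts about as low as those of Shisa3, it was 0.12. An SE is not a limit of detection, and differences larger than it could also be missed.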
